A study of Homo sapiens with 22 samples.

Results

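The genes described here make cholesterol and fatty acids or control how much of them a cell makes. The list held 36 genes, chosen by name for their place in these pathways, by a rule that uses no measured value but was written with earlier results of these data known, and 35 of them were found among the 37908 genes of the count table. ACACA, which encodes an acetyl-CoA carboxylase, is not analysed here because its identifier could not be matched. ABCG1, a sterol exporter, had at most 1 raw count in any library and was not tested, so that 34 genes entered the tests. Their RNA was measured in H1299, a line of human non-small cell lung carcinoma cells in which doxycycline (DOX) switches on an shRNA against BRCA2. All groups were this engineered line. Cells grown without DOX are the BRCA2-proficient background, and those that had 3 days of DOX at 2 µg/mL form the BRCA2-deficient one. No DOX-treated culture without the shRNA is analysed here, so that an effect of DOX and an effect of BRCA2 depletion cannot be told apart. In each background, cells received control siRNA or siRNA against β-catenin (siβ-catenin, gene CTNNB1). They had either no inhibitor or 250 nM of the GSK3 inhibitor LY2090314 (GSK3i) for 24 h. The study's figure legends give DMSO for the cells without inhibitor. Control siRNA without GSK3i is called untreated. The 22 RNA-seq libraries formed 8 groups of 3, except that the BRCA2-proficient untreated and BRCA2-proficient siβ-catenin groups held 2 libraries each, numbered 2 and 3.

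Cells build cholesterol from acetyl-CoA through the mevalonate steps to squalene, which is then closed into a ring and trimmed to cholesterol. The transcription factors SREBP1 and SREBP2 (genes SREBF1 and SREBF2) drive this pathway and fatty acid synthesis: the escort protein SCAP carries them out of the endoplasmic reticulum when sterols are low, and INSIG1 and INSIG2 hold SCAP back when sterols are high. Mature SREBPs phosphorylated by GSK3 are marked for destruction by the ubiquitin ligase subunit FBXW7. A second set of genes responds to oxysterols through the nuclear receptors LXR and RXR, among them ABCA1 and MYLIP, which lower the sterol content of the cell, and SREBF1 itself. The comparisons below ask how RNA of these genes differed with GSK3i, with siβ-catenin and with BRCA2 depletion.

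The libraries held 18938266 to 29280122 counts each. BRCA2 ranged from 514 to 1111 normalised counts in BRCA2-proficient and from 71.4 to 225 in BRCA2-deficient libraries, and CTNNB1 from 5206 to 8669 with control siRNA and from 977 to 2217 with siβ-catenin, so that neither pair of ranges overlapped. The epithelial keratin KRT8 was at 2037 to 8200 normalised counts and VIM at 12640 to 35310. The alveolar genes SFTPB and SFTPC and the leukocyte gene PTPRC stayed below 2. NKX2-1, also an alveolar gene of the marker list, was present at a low level. Its mean was 38 counts in the BRCA2-proficient and 42 in the BRCA2-deficient GSK3i comparison with control siRNA. Ranges of the other markers are given with the processing. GSK3i itself was checked with genes other than the members, without leaving out the other lists used here. These were 162 genes raised and 673 lowered by more than 1 on the log2 scale in both GSK3i comparisons of BRCA2-deficient cells. Because they were chosen on BRCA2-deficient libraries, they check only the BRCA2-proficient ones. The mean log2 level of the first minus that of the second was between 2.80 and 3.06 in 5 of the 6 BRCA2-proficient libraries labelled GSK3i, and 0.06 and 0.08 in both untreated ones. The library labelled BRCA2-proficient GSK3i with siβ-catenin replicate 2 was at -0.01, and the library labelled BRCA2-proficient siβ-catenin without GSK3i replicate 2 was at 2.71, each on the side opposite to its label. Replicate 3 of the same siβ-catenin group was at 0.83, between both sets. The labels were kept as given. These 3 are called the doubted libraries, each comparison that uses one says so, and the GSK3i comparisons with control siRNA and all those within BRCA2-deficient cells use none. AXIN2, a direct WNT target, was at 59.5 to 96.9 normalised counts without GSK3i, at 1027 to 1747 with GSK3i and control siRNA, and at 73.1 to 227 with GSK3i and siβ-catenin.

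The regulatory letters of the family are shown first, before the values of the members. RefSeq promoter windows (GRCh38.p14), from 250 bases before to 50 after the start site, were at hand for 31 of the 36 genes, and for ACAT2, FDFT1, SQLE, FASN and ABCG1 no window was used. The window was searched on both strands for a sterol regulatory element (TCACNCCAC), an E-box (CACGTG), an NF-Y box (CCAAT) and a TCF box (CTTTGAT), none of which overlapped another in the printed sequences. Of the 31 genes, 23 held an NF-Y box, against 39.7% of all 27305 genes with a window, 6 held an E-box against 8.77%, and 1 held the sterol regulatory element against 1.39%. No member held the TCF box, which 3.18% of all genes had. Among the tested genes with a window, the NF-Y box stood in 12 of 15 members called lower with GSK3i in either background and in 10 of 15 that were not. The 250 bases before the start site are printed below for 4 of the lowered sterol genes, for ABCA1, and for INSIG1, which did not pass the call. Capitals mark the sterol regulatory element, the E-box and the NF-Y box on either strand, and each line runs 5′ to 3′ on the gene's own strand. SREBF2 (chr22:41832855-41833104, plus strand) carries the sterol regulatory element 133 bases and an NF-Y box 106 bases before its start. MSMO1 (chr4:165327419-165327668, plus strand) carries 4 NF-Y boxes, MVD (chr16:88663092-88663341, minus strand) 3 and TM7SF2 (chr11:65111622-65111871, plus strand) 1. ABCA1 (chr9:104928156-104928405, minus strand) carries 1 E-box and no NF-Y box. INSIG1 (chr7:155297628-155297877, plus strand) carries 1 of each.
SREBF2: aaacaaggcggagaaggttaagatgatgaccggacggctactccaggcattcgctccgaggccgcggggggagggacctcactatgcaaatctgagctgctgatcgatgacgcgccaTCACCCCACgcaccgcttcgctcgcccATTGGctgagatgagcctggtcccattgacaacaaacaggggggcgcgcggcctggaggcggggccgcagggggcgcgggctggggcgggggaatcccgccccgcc
MSMO1: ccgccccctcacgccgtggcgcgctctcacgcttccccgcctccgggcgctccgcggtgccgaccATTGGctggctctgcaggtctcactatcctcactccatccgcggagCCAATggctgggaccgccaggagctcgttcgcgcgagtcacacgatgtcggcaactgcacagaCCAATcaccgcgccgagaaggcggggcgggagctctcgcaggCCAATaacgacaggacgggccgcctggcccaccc
MVD: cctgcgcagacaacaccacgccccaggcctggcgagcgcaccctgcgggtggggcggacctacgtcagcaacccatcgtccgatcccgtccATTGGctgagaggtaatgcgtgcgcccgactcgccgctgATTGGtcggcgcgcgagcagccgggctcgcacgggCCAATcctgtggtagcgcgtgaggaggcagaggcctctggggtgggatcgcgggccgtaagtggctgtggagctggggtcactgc
TM7SF2: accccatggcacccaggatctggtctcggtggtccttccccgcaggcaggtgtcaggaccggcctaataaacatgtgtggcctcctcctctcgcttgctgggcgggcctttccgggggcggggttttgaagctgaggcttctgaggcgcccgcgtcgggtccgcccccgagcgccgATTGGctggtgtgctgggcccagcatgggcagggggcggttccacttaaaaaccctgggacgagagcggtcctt
ABCA1: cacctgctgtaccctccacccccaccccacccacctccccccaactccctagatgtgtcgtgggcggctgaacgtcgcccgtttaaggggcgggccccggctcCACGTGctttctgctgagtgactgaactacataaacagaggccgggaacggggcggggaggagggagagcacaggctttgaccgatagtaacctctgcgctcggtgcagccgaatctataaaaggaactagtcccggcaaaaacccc
INSIG1: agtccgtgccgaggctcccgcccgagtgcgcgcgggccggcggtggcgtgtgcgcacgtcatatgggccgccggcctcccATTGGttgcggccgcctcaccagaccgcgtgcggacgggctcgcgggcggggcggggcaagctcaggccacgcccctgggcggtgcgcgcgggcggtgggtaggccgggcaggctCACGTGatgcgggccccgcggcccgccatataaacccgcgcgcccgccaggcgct
These matches describe the letters in a window and were not tested for use as sites.

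Compared per kb of exon, so that genes of different length can be set side by side, the fatty acid enzymes SCD, FASN and ACLY and the sterol sensor INSIG1 were the most abundant members, with medians over the 22 libraries of 7090, 3000, 1780 and 2340 normalised counts per kb. The median of SREBF1 was 1010 and that of SREBF2 724 per kb. ABCA1 (45.9), CYP51A1 (52.4), FADS2 (63.2) and HSD17B7 (63.6) were the lowest of the tested members. The widest ranges between libraries belonged to TM7SF2, ABCA1 and IDI1, whose highest library held 10.9, 10.8 and 9.52 times the count of the lowest. SCAP varied least, by 1.35 times, and ACLY by 1.56 times. The heat map of all members by library shows the GSK3i columns turning blue in both backgrounds for a subset of genes.

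**Figure D1:**
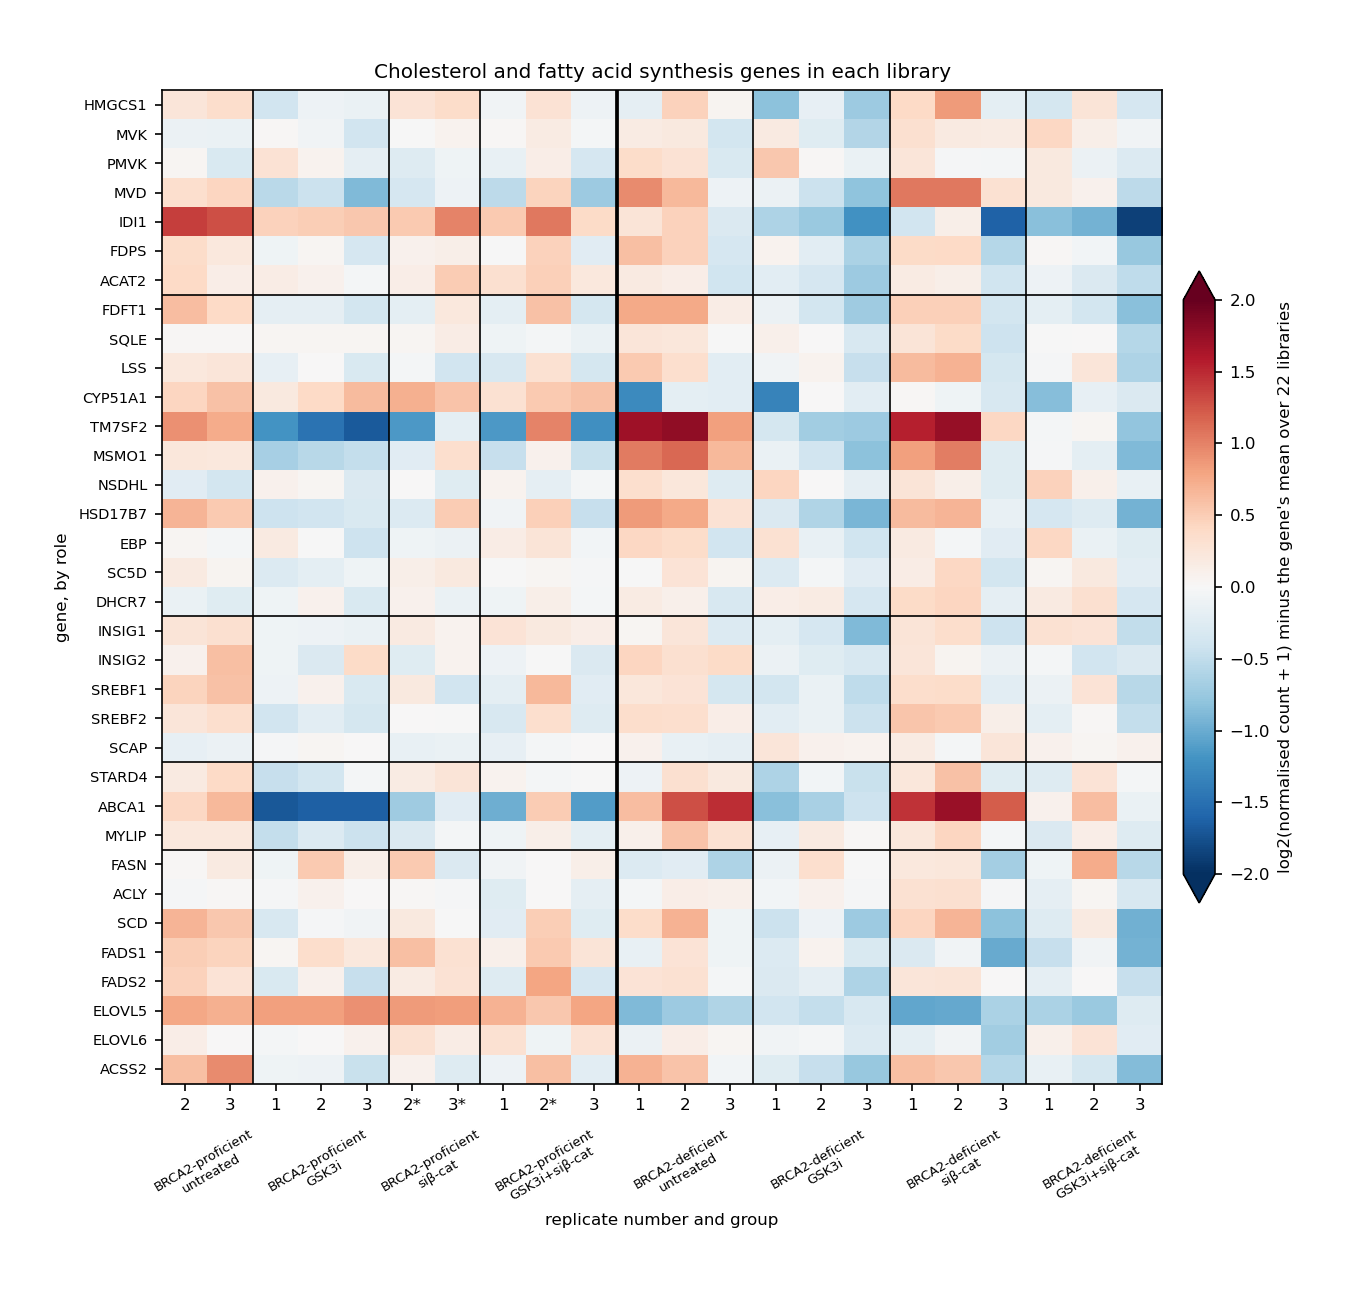
Each row is 1 of the 34 tested genes, grouped by role, and each column 1 of the 22 libraries, labelled by replicate number and group. Colour is log2(normalised count + 1) minus the gene's mean over the libraries. An asterisk marks the 3 doubted libraries, whose GSK3i-responsive genes go against the label or lie between the levels with and without GSK3i. TM7SF2 and ABCA1 are the darkest blue in the BRCA2-proficient GSK3i columns, and ELOVL5 and IDI1 separate the backgrounds.

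The RNA of many sterol genes was lower with GSK3i, and no member rose past the test. In BRCA2-proficient cells with control siRNA, 15 of 34 members were called lower and 0 higher, where a call meant a Benjamini-Hochberg adjusted p under 0.05 over all genes (DESeq2 Wald test) and a log2 fold change beyond 0.5 in size. Over all genes tested, 14.3% were called lower and 11.8% higher. In BRCA2-deficient cells 14 of 34 members were lower and 0 higher, against 13.8% and 11.6% of all genes. At an unadjusted p under 0.05, 0 members were higher in the BRCA2-proficient background and 2 in the other, and edgeR called 0 higher in both, with 15 and 13 lower. The median log2 fold change of the members was -0.40 in each background, beside -0.00 and 0.02 for all genes. Leaving out single libraries moved the BRCA2-deficient count from 9 (without untreated replicate 2 or GSK3i replicate 3) to 17 (without untreated replicate 3). In BRCA2-proficient cells every GSK3i library lay below every untreated library for 20 members, as for 30% of all genes. In BRCA2-deficient cells this held for 13 members, against 21.1% of all genes. Of the cell type markers, 5 were tested and all had values below 0 with GSK3i in both backgrounds, with KRT8 (-1.15 and -1.31) and KRT7 (-1.44 and -1.39) called lower in each and KRT18 (-0.76) in BRCA2-deficient cells. Whether this has a part in the members' values was not tested. In bulk RNA, fewer cells expressing a gene and less RNA per cell cannot be told apart.

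The genes that fell were largely shared by both backgrounds. Of the called members, 13 were lower in both, which is 86.7% of the BRCA2-proficient and 92.9% of the BRCA2-deficient list, and no sample was shared between these comparisons. The same shares were not computed over all genes, so this overlap is not read as particular to the members. SREBF1 and MYLIP were called in BRCA2-proficient cells and not in BRCA2-deficient cells, and INSIG2 the reverse. The log2 fold changes of the 34 members correlated between backgrounds with Pearson r = 0.934 (Spearman rho = 0.925), beside 0.863 over 16357 genes. Genes are the points of both correlations, and they share their libraries and are not replicates. The difference between the responses was tested directly by an interaction term in DESeq2, which called 0 members and 6 of 17371 genes (0.0345%), with 1 member at an unadjusted p under 0.05 and 0 called by edgeR.

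Of the 7 mevalonate genes, which lead from acetyl-CoA to farnesyl pyrophosphate, 3 fell in each background. MVD, the mevalonate pyrophosphate decarboxylase, held 2893 and 3083 normalised counts in BRCA2-proficient untreated libraries and 1573, 1696 and 1237 with GSK3i. In BRCA2-deficient cells it held 4425, 3574 and 2144 without and 2105, 1703 and 1313 with GSK3i. The GSK3i libraries lay below all untreated ones in both backgrounds, and the log2 fold changes were -1.01 ± 0.16 (SE, adjusted p = 5.22e-09) and -0.99 ± 0.28 (adjusted p = 0.00292). IDI1, the isopentenyl pyrophosphate isomerase, fell by 0.86 ± 0.12 (adjusted p = 6.88e-11) and by 1.01 ± 0.24 (adjusted p = 0.000365) on the log2 scale. HMGCS1, which makes HMG-CoA, fell by 0.51 ± 0.14 and 0.68 ± 0.24 respectively. The first of these calls stood close to the size limit and was lost in 7 of 13 alternative analyses. FDPS, the farnesyl pyrophosphate synthase, changed by -0.42 in BRCA2-proficient cells (adjusted p = 0.0157), short of the size limit, while the BRCA2-deficient value was -0.52 (adjusted p = 0.144). MVK, PMVK and ACAT2 were between -0.40 and 0.18 and were not called. PMVK, the phosphomevalonate kinase, held 1024 and 811 counts in BRCA2-proficient untreated libraries and 1216, 1050 and 882 with GSK3i, with overlapping groups. Antisense or neighbouring genes share 37.7% of the exon bases of HMGCS1, 18.6% of those of FDPS, 17.2% of those of ACAT2 and 15% of those of IDI1, and the strand setting of the counting is not given in the sources used here, so that reads of overlapping genes on the opposite strand may be included in these values.

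Of the 11 genes from squalene to cholesterol, 4 fell, the same 4 in each background. TM7SF2 (ENSG00000149809, GRCh37 chr11:64879317-64883856), a reductase of the endoplasmic reticulum that acts on a double bond in the sterol ring, had the largest fall of any member. It held 852 and 757 normalised counts in BRCA2-proficient untreated libraries and 197, 163 and 141 with GSK3i, a log2 fold change of -2.28 ± 0.19 (adjusted p = 2.49e-30). In BRCA2-deficient cells it went from 1473, 1541 and 797 to 355, 279 and 274, a change of -2.07 ± 0.27 (adjusted p = 1.23e-12). No GSK3i library reached the lowest untreated one, and the call held in each of 13 and 14 alternative analyses. MSMO1, the methylsterol oxidase that acts next, held 1804 and 1789 counts in BRCA2-proficient untreated libraries and 977, 1048 and 1107 with GSK3i. In BRCA2-deficient cells the counts were 3179, 3427 and 2436 without and 1406, 1189 and 877 with GSK3i. Its log2 fold changes were -0.80 ± 0.14 (adjusted p = 6.5e-08) and -1.38 ± 0.22 (adjusted p = 2.29e-08), and again no library overlapped.

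HSD17B7, the ketosteroid reductase of the same demethylation, fell by 0.98 ± 0.17 and by 1.23 ± 0.24 on the log2 scale. FDFT1, squalene synthase, fell by 0.76 ± 0.13 and by 0.96 ± 0.23. The other 7 genes were not called in either background. SQLE, the squalene epoxidase, was at 5804 to 5884 normalised counts in all 5 BRCA2-proficient libraries with control siRNA, with a log2 fold change of -0.00 and a 95% interval from -0.23 to 0.22. DHCR7, the last reductase of the pathway, changed by 0.07 (-0.22 to 0.37) and 0.00 (-0.41 to 0.41). LSS, which closes the ring, was at -0.39 in both backgrounds, with an adjusted p of 0.0143 in the BRCA2-proficient and 0.213 in the BRCA2-deficient comparison. NSDHL had the highest change of any member in BRCA2-proficient cells, at 0.24 ± 0.15. It held 2379 and 2141 counts without and 2933, 2856 and 2271 with GSK3i, so that the groups overlapped, and the adjusted p was 0.234. CYP51A1, EBP and SC5D lay between -0.32 and 0.07.

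**Figure D2:**
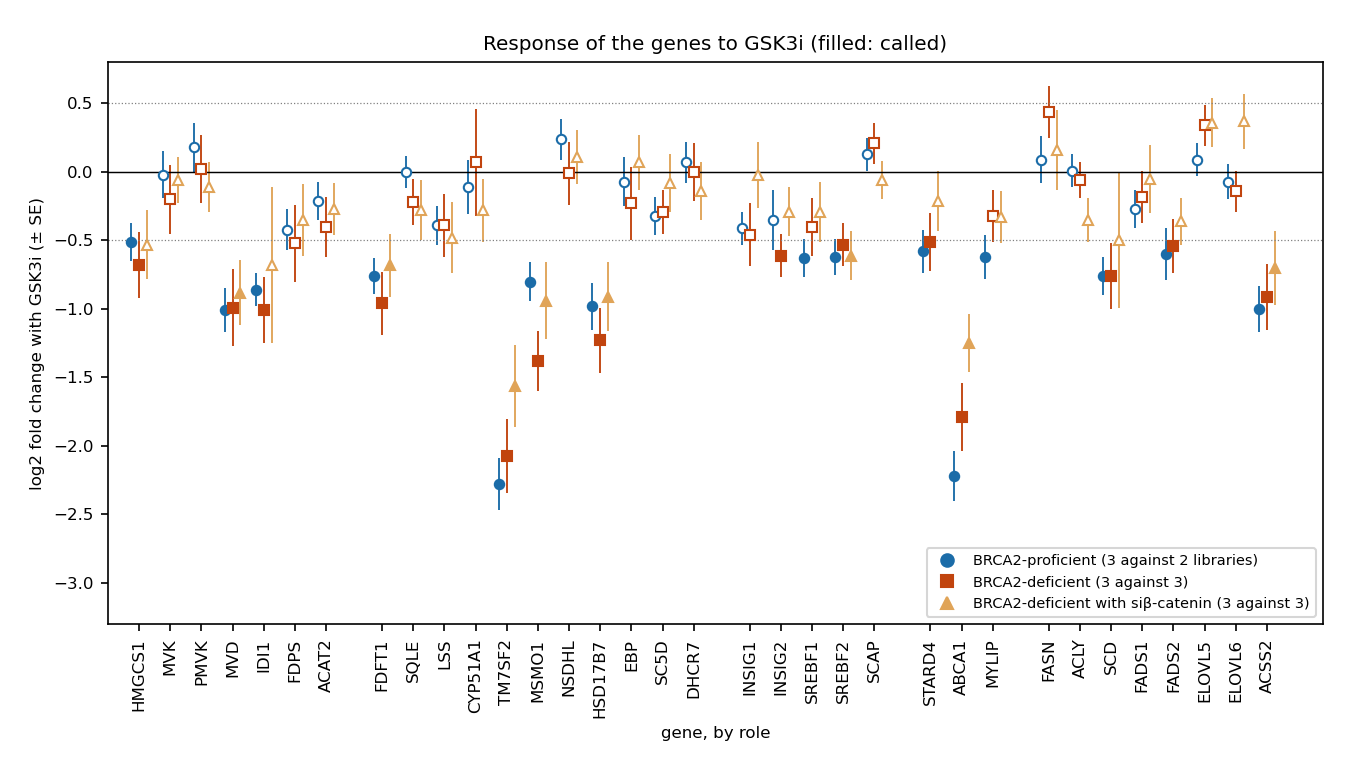
Log2 fold change with GSK3i (vertical axis, ± SE) for the 34 tested genes, ordered by role, in BRCA2-proficient cells (circles), BRCA2-deficient cells (squares) and BRCA2-deficient cells with siβ-catenin (triangles). Filled symbols passed the call and dotted lines mark the size limit of 0.5. TM7SF2 and ABCA1 lie lowest in all 3 sets, FASN and SCAP do not pass in any, and all filled symbols are below 0. BRCA2-proficient values compare 3 with 2 libraries, the others 3 with 3.

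Among the 5 genes of SREBP control, SREBF2 fell in both backgrounds. SREBF2 encodes SREBP2, the main driver of cholesterol synthesis, and its promoter holds the sterol regulatory element printed above. Its counts in BRCA2-proficient cells were 6858 and 7319 without and 4430, 5026 and 4550 with GSK3i. In BRCA2-deficient cells they were 7431, 7312 and 6365 without and 5020, 5290 and 4290 with GSK3i. The groups were apart in both, with log2 fold changes of -0.62 ± 0.13 (adjusted p = 1.09e-05) and -0.53 ± 0.16 (adjusted p = 0.00364). An antisense gene shares 9.08% of the exon bases of SREBF2, and RAI1 6.75% of those of SREBF1. SREBF1 went from 12180 and 13480 to 8324, 9478 and 7298 in BRCA2-proficient cells, a change of -0.63 ± 0.14 (adjusted p = 0.000101). In BRCA2-deficient cells it held 10440, 10780 and 7016 without and 6976, 8183 and 6328 with GSK3i, where the groups overlapped and the change of -0.40 ± 0.21 had an adjusted p of 0.15. Compared by replicate number, each of these GSK3i libraries was below its untreated counterpart.

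INSIG1, a sensitive reporter of SREBP activity because SREBPs induce it, missed the size limit. It held 9557 and 9953 normalised counts in BRCA2-proficient untreated libraries and 7509, 7442 and 7262 with GSK3i, a log2 fold change of -0.41 ± 0.12 (adjusted p = 0.00185). In BRCA2-deficient cells its counts were 8197, 9452 and 6630 without and 6999, 6335 and 4326 with GSK3i, which overlapped, with a change of -0.46 ± 0.23 (adjusted p = 0.114). Each of these GSK3i libraries was nonetheless below the untreated library of the same replicate number. INSIG2 was called lower in BRCA2-deficient cells, at -0.61 ± 0.16 (adjusted p = 0.000917), while its BRCA2-proficient value was -0.35 ± 0.22 (adjusted p = 0.214). SCAP, the escort, held 2670 and 2777 counts without and 2962, 3087 and 3005 with GSK3i in BRCA2-proficient cells, and 3180, 2711 and 2633 against 3534, 3184 and 3143 in BRCA2-deficient cells. Its GSK3i libraries all lay above the untreated ones in BRCA2-proficient cells and overlapped them in BRCA2-deficient cells, and the changes of 0.13 and 0.21 were not called (adjusted p = 0.425 and 0.32). Compared by replicate number, each BRCA2-deficient GSK3i library was above its untreated counterpart.

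ABCA1 (ENSG00000165029, GRCh37 chr9:107543287-107690436), the exporter that hands cellular cholesterol to apolipoprotein A1, fell nearly as far as TM7SF2. It held 705 and 830 normalised counts in BRCA2-proficient untreated libraries and 162, 170 and 169 with GSK3i, a log2 fold change of -2.22 ± 0.18 (adjusted p = 2.85e-32). In BRCA2-deficient cells it went from 808, 1288 and 1464 to 297, 335 and 396, a change of -1.79 ± 0.25 (adjusted p = 4.15e-11). The highest GSK3i library was thus below the lowest untreated library in each background. MYLIP, the LXR-induced ligase that removes lipoprotein receptors, fell by 0.62 ± 0.16 in BRCA2-proficient cells (adjusted p = 0.000817), from 626 and 624 to 388, 444 and 400 counts. In BRCA2-deficient cells it held 578, 799 and 667 without and 482, 611 and 548 with GSK3i, with overlapping groups and a change of -0.32 ± 0.19 (adjusted p = 0.22). Here too each GSK3i library was below the untreated library of the same replicate number. STARD4, which carries cholesterol between membranes, fell by 0.58 ± 0.16 and by 0.51 ± 0.21, and the second call (adjusted p = 0.047) was lost in 8 of 14 alternative analyses.

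The 8 tested fatty acid genes divided. SCD, the desaturase that makes oleate, fell by 0.76 on the log2 scale in each background (SE 0.14 and 0.24), from a mean of 58640 ± 3810 (SD, n = 2) to 35020 ± 3810 (n = 3) normalised counts in BRCA2-proficient cells and from 49390 ± 13100 to 29200 ± 6270 (n = 3 each) in BRCA2-deficient cells. ACSS2, which makes acetyl-CoA from acetate, held 1971 and 2490 counts in BRCA2-proficient untreated libraries and 1221, 1212 and 949 with GSK3i, 0.5 times the untreated level (95% interval of the log2 fold change from -1.33 to -0.67, adjusted p = 3.94e-08). In BRCA2-deficient cells it held 2103, 1931 and 1242 without and 1100, 939 and 766 with GSK3i, a change of -0.91 ± 0.24 (adjusted p = 0.00115). FADS2, the delta-6 desaturase, fell by 0.60 ± 0.19 and by 0.54 ± 0.20. ACLY and FASN, which supply acetyl-CoA and assemble palmitate, were not called in either background. FASN was the highest of all members in BRCA2-deficient cells, at 0.44 ± 0.19 (adjusted p = 0.0636). Its counts were 23190, 24030 and 18200 without and 25840, 35220 and 27900 with GSK3i, which did not overlap, whereas in BRCA2-proficient cells 28520 and 31620 stood against 26440, 40110 and 30300. ACLY changed by 0.01 (95% interval from -0.22 to 0.24) and -0.06 (-0.32 to 0.19). FADS1, ELOVL5 and ELOVL6 lay between -0.27 and 0.34, and ELOVL5 had the higher of the values, in BRCA2-deficient cells (adjusted p = 0.0642).

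**Figure D3:**
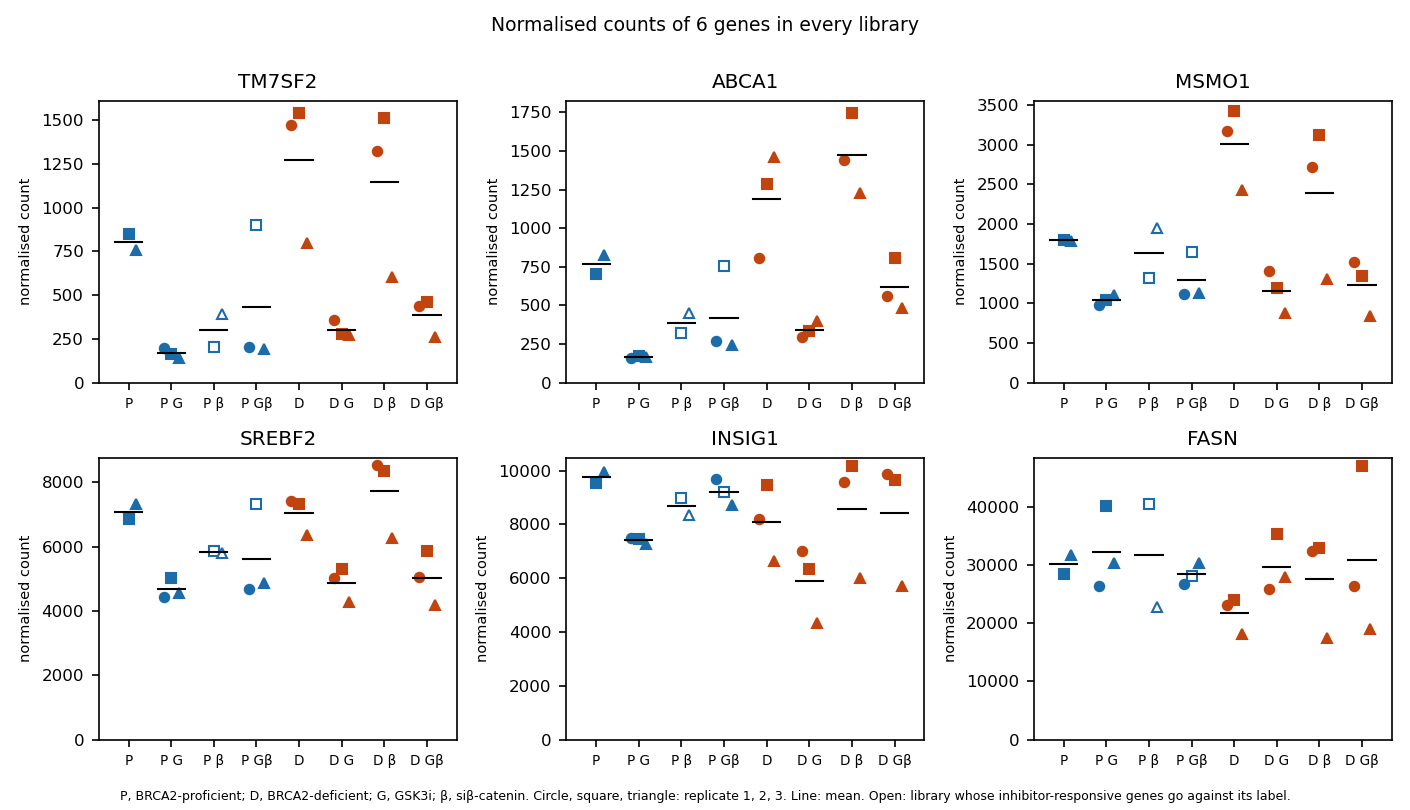
Normalised counts (vertical axis, from 0) of TM7SF2, ABCA1, MSMO1, SREBF2, INSIG1 and FASN in each library of the 8 groups, with a line at each group's mean and the symbol giving the replicate number. Open symbols are the 3 doubted libraries, whose GSK3i-responsive genes go against the label or lie between the levels with and without GSK3i. GSK3i points with control siRNA lie below the untreated points for the first 4 genes, and replicate 3 is often the lowest of the BRCA2-deficient groups.

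The fall with GSK3i was still present in BRCA2-deficient cells depleted of β-catenin. There 8 members were called lower and 0 higher, against 11.5% and 8.56% of all genes, and all 8 were also among the 14 called with control siRNA. That overlap was not computed over all genes. At an unadjusted p under 0.05, 0 members were higher, and edgeR called 6 lower and 0 higher. The median of the members was -0.29, beside 0.01 for all genes. TM7SF2 held 1324, 1510 and 605 normalised counts with siβ-catenin alone and 439, 463 and 261 with GSK3i added, a log2 fold change of -1.56 ± 0.30 (adjusted p = 4.35e-06). ABCA1 held 1439, 1747 and 1229 and then 559, 808 and 483, a change of -1.25 ± 0.21 (adjusted p = 1.69e-07). MVD fell by 0.88 ± 0.24, MSMO1 by 0.94 ± 0.28, HSD17B7 by 0.91 ± 0.25, FDFT1 by 0.68 ± 0.23, SREBF2 by 0.61 ± 0.18 and ACSS2 by 0.70 ± 0.27. SREBF2 held 8547, 8353 and 6270 counts without and 5056, 5868 and 4185 with GSK3i.

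INSIG1 was not called with siβ-catenin. It held 9563, 10190 and 6006 counts without and 9894, 9654 and 5695 with GSK3i, a change of -0.02 with a 95% interval from -0.49 to 0.45. IDI1 changed by -0.68 ± 0.57 (adjusted p = 0.413). It was called lower with the replicate number as a block (-0.59, adjusted p = 0.000984), without siβ-catenin replicate 3 (-1.04, adjusted p = 0.00192) and without replicate 3 of both groups (-0.76, adjusted p = 0.0087). The 14 members called lower with control siRNA had a median of -0.94 without and -0.68 with siβ-catenin. They were selected on the first of these comparisons, so that a smaller change in the second is no sign of a difference. The difference between the responses was tested as an interaction, and it was called for 0 members and for 88 of 14601 genes (0.603%). At an unadjusted p under 0.05 the interaction counted 0 members, and edgeR called 0. For INSIG1 the interaction estimate was 0.42 with a 95% interval from -0.32 to 1.16. The number of members called lower with siβ-catenin ran from 4 to 14 when single libraries were left out. It was 4 without replicate 1 or 2 of the siβ-catenin group or replicate 3 of the combined group, and 14 without replicate 3 of the siβ-catenin group.

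Under GSK3i, siβ-catenin changed 1 member past the test, ABCA1, in both backgrounds. In BRCA2-deficient cells ABCA1 held 297, 335 and 396 normalised counts with GSK3i and control siRNA and 559, 808 and 483 with GSK3i and siβ-catenin, which did not overlap, a log2 fold change of 0.84 ± 0.24 (adjusted p = 0.0123). The highest of these equalled the lowest of the untreated libraries (808 to 1464 counts). This 1 call among 34 members stands beside 3.13% of all genes called higher. The adjusted p was 0.0902 with edgeR, 0.0879 in 1 model over all groups, 0.13 without GSK3i replicate 2 and 0.159 without replicate 2 of the combined group, and 3.22e-05 with the replicate number as a block. In BRCA2-proficient cells ABCA1 held 162, 170 and 169 counts with GSK3i alone and 269, 754 and 242 with siβ-catenin, a change of 1.37 ± 0.38 (adjusted p = 0.0116), where 3.45% of all genes were called higher. The 754 belongs to the replicate 2 that lacks the GSK3i pattern, and without it the change was 0.63 (adjusted p = 0.0238). The call was lost with edgeR (adjusted p = 0.139) and without any 1 of the 3 GSK3i replicates (0.0788 to 0.101). INSIG1 was at 0.51 ± 0.26 in BRCA2-deficient cells (adjusted p = 0.276) and at 0.34 ± 0.11 in BRCA2-proficient cells (adjusted p = 0.0502). In BRCA2-deficient cells without GSK3i, siβ-catenin changed 0 members, against 2.2% of all genes, with 0 members at an unadjusted p under 0.05 and 0 called by edgeR. With the replicate number as a block, IDI1 was called lower there (-0.76, adjusted p = 0.00472).

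The comparisons that rest on the doubted BRCA2-proficient libraries are given as measured. GSK3i with siβ-catenin called 0 members and 9 of 17010 genes (0.0529%), with 0 members at an unadjusted p under 0.05 and 0 by edgeR. With siβ-catenin alone, replicates 2 and 3 held 203 and 394 counts of TM7SF2, and 323 and 453 of ABCA1. With GSK3i added, replicates 1 to 3 held 203, 901 and 193 counts of TM7SF2, and 269, 754 and 242 of ABCA1. Replicate 2 of each group was thus near the level of the other treatment. siβ-catenin without GSK3i called 4 members lower, MVD (-0.61), TM7SF2 (-1.44), ACSS2 (-0.87) and ABCA1 (-0.99), against 2.4% of all genes, and edgeR called 0. The interaction of GSK3i and siβ-catenin called 4 members, INSIG1, ACSS2, ABCA1 and MYLIP, with a less negative response under siβ-catenin, against 4.48% of all genes in that direction, and edgeR called 0. ACSS2 held 1373 and 1085 counts with siβ-catenin and 1208, 1971 and 1117 with GSK3i added, and MYLIP 442 and 527, then 506, 587 and 470. For BRCA2 depletion with siβ-catenin, 7 members were called, against 28.6% of all genes: MVD (1.04), TM7SF2 (1.92) and ABCA1 (1.90) were higher and CYP51A1 (-0.79), FADS1 (-0.89), ELOVL5 (-1.74) and ELOVL6 (-0.55) lower. The part of the 3 libraries in these values cannot be separated, because both libraries of the BRCA2-proficient siβ-catenin group are among them.

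BRCA2 depletion, together with DOX, moved few members and in both directions. Among untreated cells 4 of 34 were called, against 8.19% of all genes: ELOVL5, IDI1 and CYP51A1 were lower and MSMO1 was higher. Under GSK3i 4 were called, against 7.23% of all genes: ELOVL5 and IDI1 were lower, and TM7SF2 (0.85 ± 0.20, adjusted p = 0.00115) and ABCA1 (1.04 ± 0.20, adjusted p = 1.06e-05) were higher. Under GSK3i with siβ-catenin 5 were called lower, against 8.76% of all genes, namely IDI1, ELOVL5, CYP51A1, ACAT2 and FADS1, and 7 without the doubted replicate 2. Without it TM7SF2 turned from -0.17 to 0.95 (adjusted p = 0.00659). ACAT2, the cytosolic thiolase at the start of the pathway, held 3690, 4094 and 3408 counts in BRCA2-proficient and 2736, 2401 and 2079 in BRCA2-deficient libraries there (-0.64 ± 0.17, adjusted p = 0.0054), with no overlap, the 4094 being the doubted library.

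Same-numbered libraries deviated together in the last 2 comparisons, and entering the number as a block added calls. Under GSK3i it added CYP51A1 (-0.91, adjusted p = 0.00193). Under GSK3i with siβ-catenin it added ACSS2 (-0.56, adjusted p = 0.0472) and ABCA1 (0.71, adjusted p = 0.0258). The counts rested on single libraries. Among untreated cells they ran from 2, without either BRCA2-proficient library, to 6, without BRCA2-deficient replicate 1 or 3. Under GSK3i they reached 6 without BRCA2-deficient replicate 1 or 2 and fell to 2 without replicate 3 of both groups. Under GSK3i with siβ-catenin 3 were left without replicate 3 of either group.

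ELOVL5 (ENSG00000012660, GRCh37 chr6:53132196-53213977), which elongates polyunsaturated fatty acids, separated the backgrounds in every condition. It held 8590 and 8266 normalised counts in BRCA2-proficient untreated libraries and 2722, 3047 and 3303 in BRCA2-deficient ones, a log2 fold change of -1.50 ± 0.17 (adjusted p = 4.09e-16). Over all 22 libraries, the lowest BRCA2-proficient value of ELOVL5 was 7286 and its highest BRCA2-deficient value 4224. Under GSK3i the change was -1.25 ± 0.12 (adjusted p = 8.9e-23), from 8854, 8881 and 9456 to 3843, 3632 and 4029 counts. IDI1 held 4560 and 4307 counts in BRCA2-proficient and 2090, 2415 and 1431 in BRCA2-deficient untreated libraries, a change of -1.19 ± 0.23 (adjusted p = 2.29e-05). Under GSK3i its counts went from 2403, 2462 and 2556 to 1146, 1053 and 758 (-1.34 ± 0.17, adjusted p = 3.52e-12). With GSK3i and siβ-catenin they went from 2531, 3657 and 2298 to 978, 911 and 479 (-1.85 ± 0.28, adjusted p = 5.7e-09), where the 3657 belongs to the doubted replicate 2, without which IDI1 was at -1.63 and still called. Its BRCA2-deficient GSK3i libraries were therefore below both the BRCA2-proficient GSK3i libraries and the BRCA2-deficient untreated ones.

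CYP51A1, the lanosterol demethylase, had low counts, at 85 to 355 in any library. It held 291 and 326 counts in BRCA2-proficient and 89, 190 and 186 in BRCA2-deficient untreated libraries, a change of -1.01 ± 0.33 (adjusted p = 0.0332). Gene models that are absent from the count table share 68.2% and 67.8% of its exon bases on the same strand. Whether they had a part in its low counts was not tested. MSMO1 moved the other way in untreated cells, from 1804 and 1789 to 3179, 3427 and 2436 counts, a change of 0.72 ± 0.19 (adjusted p = 0.00495), and was at 0.14 ± 0.19 under GSK3i (adjusted p = 0.779).

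**Figure D4:**
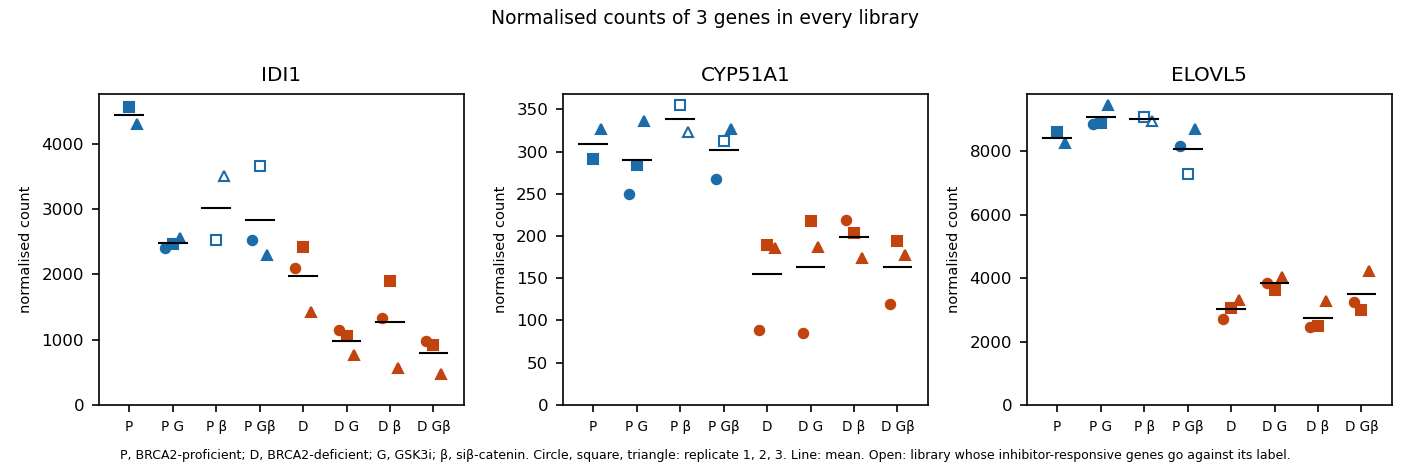
Normalised counts (vertical axis, from 0) of IDI1, CYP51A1 and ELOVL5 in each library of the 8 groups, with lines at group means and symbols for the replicate number. All BRCA2-deficient values of ELOVL5 and CYP51A1 lie below all BRCA2-proficient ones, and those of IDI1 fall further with GSK3i.

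The replicates of the BRCA2-deficient groups differed in these genes in the same way each time. Replicate 3 was the lowest of the 3 libraries in all 4 BRCA2-deficient groups for 21 of 34 members, against 10.2% of 16712 genes. Replicates 1 and 2 were the lowest in all 4 groups for 0 members each, against 11.2% and 3.49% of all genes. Replicate 2 was the highest in all 4 groups for 11 members, against 4.22% of all genes. For replicate 1 this held for 6 members, against 15.7%, and for replicate 3 for 1 member, against 6.12%. The 21 included 6 of the 7 mevalonate genes, all but HMGCS1, besides TM7SF2, MSMO1, SCD, INSIG1, SREBF1 and SREBF2. Averaged over the 4 groups, replicate 3 differed from the mean of the others by -0.92 on the log2 scale for IDI1, -0.86 for SCD, -0.79 for FDPS and TM7SF2, -0.63 for INSIG1 and -0.32 for SREBF2. ELOVL5 (0.29) and CYP51A1 (0.15) were higher in replicate 3, and SCAP (-0.02) was level. The spread was widest with siβ-catenin alone, where SCD held 51780, 61330 and 21760 counts. What set replicate 3 apart is not given in the sources used here. Same-numbered libraries deviated together in each comparison within BRCA2-deficient cells. With the number as a block, 14 members were called lower with GSK3i in BRCA2-deficient cells, as without it. With replicate 3 of both groups left out, 9 were.

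**Figure D5:**
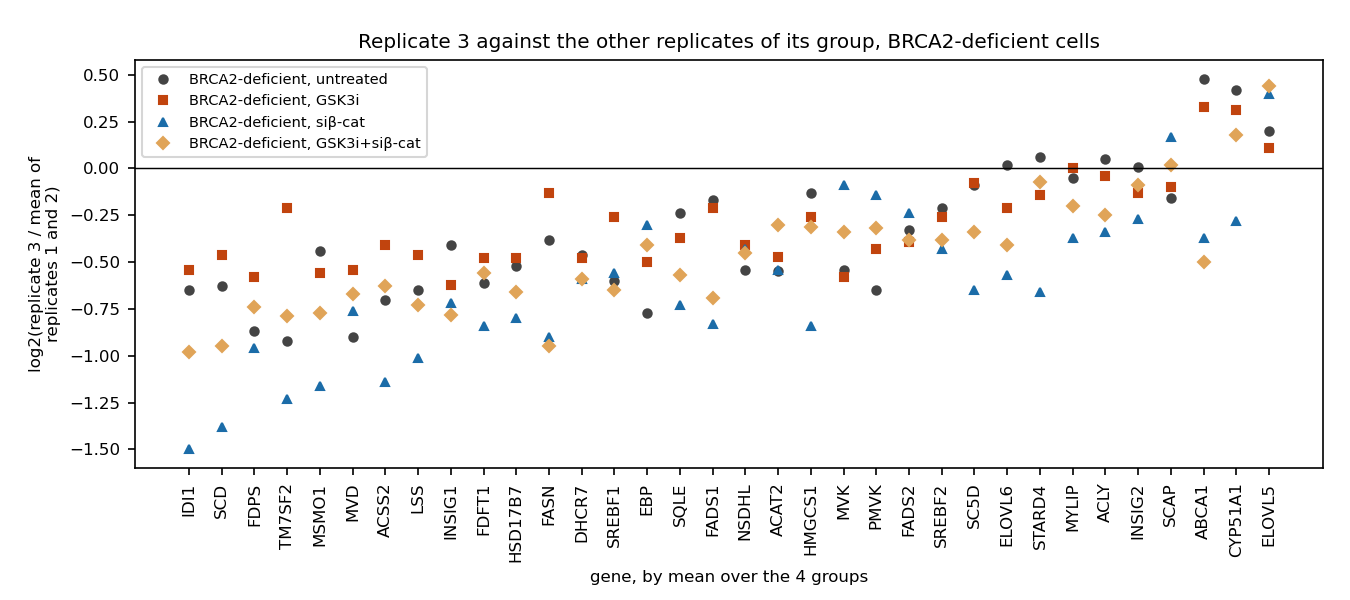
For each of the 34 tested genes, log2 of replicate 3 over the mean of replicates 1 and 2 (vertical axis) in each of the 4 BRCA2-deficient groups, with genes ordered by the mean over the groups. Most points lie below 0, from -1.50 for IDI1 with siβ-catenin upward, and ELOVL5 is above 0 in all 4 groups.

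The genes around the pathway are given beside the members, and their counts are to be read against the 11.8% higher and 14.3% lower of all genes in BRCA2-proficient and the 11.6% and 13.8% in BRCA2-deficient comparisons, near which several of them lie. Of 19 genes that process SREBPs or turn them and their partners over, 2 rose and 2 fell in BRCA2-proficient cells, and 3 rose and 3 fell in BRCA2-deficient cells. MBTPS1, the site-1 protease that cleaves SREBPs, fell by 0.76 ± 0.12 and by 0.92 ± 0.13 on the log2 scale. RNF145, a sterol-responsive ubiquitin ligase, fell by 0.53 ± 0.13 and by 0.51 ± 0.13. FBXW7 was at 0.52 ± 0.21 in BRCA2-deficient cells, which passed (adjusted p = 0.0469), and at 0.35 ± 0.16 in BRCA2-proficient cells, which did not (adjusted p = 0.0807).

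Of 22 genes of sterol transport, storage and LXR signalling, 3 rose and 4 fell in BRCA2-proficient and 4 rose and 5 fell in BRCA2-deficient cells. TMEM97, a regulator of cholesterol transport by NPC1, rose by 1.15 ± 0.16 and 1.12 ± 0.20, and LRP8, a lipoprotein receptor, by 0.58 ± 0.16 and 0.93 ± 0.20. The partners of LXR, RXRA and RXRB, fell by 0.82 ± 0.18 and 1.05 ± 0.15 in BRCA2-proficient cells and by 0.82 ± 0.18 and 1.25 ± 0.17 in BRCA2-deficient cells. SMPDL3A, an LXR target, fell by 0.97 ± 0.16 and by 1.02 ± 0.18, and SOAT1, which esterifies cholesterol for storage, rose by 0.52 ± 0.12 and 0.68 ± 0.14. Of 26 other genes of fatty acid and glycerolipid metabolism, 3 rose and 3 fell in BRCA2-proficient cells, and 2 rose and 3 fell in BRCA2-deficient cells. ACSL1, a long-chain acyl-CoA synthetase, rose by 1.25 ± 0.14 and 1.16 ± 0.15, and the fatty acid carrier FABP5 by 0.73 ± 0.15 and 0.64 ± 0.20. ACACB, the mitochondrial acetyl-CoA carboxylase, fell by 1.16 ± 0.21 and by 0.96 ± 0.21, and the phosphatidate phosphatase LPIN3 by 1.31 ± 0.29 and by 1.18 ± 0.25. The medians of the 3 lists lay between -0.01 and 0.10, beside -0.40 for the members.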

How the data were processed

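Per the study's methods, poly(A) strand-specific libraries were aligned, duplicates were removed and reads were counted per Ensembl gene. The submitters' processing notes name hg19, HISAT2 2.0.4, SAMtools 1.4, Picard 1.9.2 and featureCounts 1.5.0, whereas the study's reporting summary lists other versions of HISAT2, Picard and featureCounts. The authors deposited raw counts, without normalization. The Ensembl release and the strand setting are not given in the sources used here. Duplicate removal can lower the most abundant genes, such as SCD and FASN, more than others.

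Identifiers were named from the GENCODE annotation lifted to GRCh37 (36479 of 37908 matched). Groups came from the titles of the labels. The 22 libraries held 18938266 to 29280122 counts. Tests used DESeq2 1.42.0 (R 4.3.3) on the 2 groups compared, without shrinkage, leaving out genes with fewer than 10 counts in more than 3 libraries. For interactions a gene needed 10 counts or more in 3 libraries. Levels are normalised counts (size factors over all libraries). Errors of fold changes are SE, and intervals are 95%. edgeR 4.0.16, another scaling, no filter, no size limit, a test against 0.5, 1 model over all groups, a replicate block and single left-out libraries were alternatives, and the scripts were tested on simulated data. Leaving out replicate 3 of both groups was added after seeing the data. The study's figure legends call the RNA-seq replicates independent experiments and give n = 3, whereas 2 of the groups here hold 2 libraries.

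The labels share replicate numbers between groups. Deviations of same-numbered libraries correlated by 0.218 to 0.75 in the comparisons within BRCA2-deficient cells, and by 0.13 to 0.511 for BRCA2 depletion under GSK3i (with or without siβ-catenin) and for siβ-catenin added to GSK3i without DOX, so the numbers were taken to pair those libraries. Other comparisons had fewer than 3 pairs.

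The members and the lists were chosen with earlier results of these data known. Members called with GSK3i in either background were named by role with their fold changes, and of each list around the pathway up to 3 genes a direction, of which 1 is not reported here. Values of every library were given for INSIG1, SREBF1, SREBF2, the 3 highest and 3 lowest changes with GSK3i, members called in an interaction, and up to 3 called with siβ-catenin or BRCA2 depletion. Of the marker genes, KRT8, VIM, SFTPB, SFTPC and PTPRC have their range or upper limit over the libraries printed above. For the others, KRT18 was at 5068 to 12950, KRT7 at 93.6 to 461 and NKX2-1 at 19.8 to 108 normalised counts. CD68 was at up to 13.8 and ALB at up to 7.84, and CD3E and PECAM1 were not matched.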

Additional observations from a re-analysis of the deposited data

Results flagged for a closer look

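In BRCA2-proficient cells the interaction term of the DESeq2 model called 4 of 34 members, against 4.48% of all genes called in the same direction. Under the labels as given, their response to GSK3i was higher with siβ-catenin than with control siRNA. The difference between the log2 fold changes (with siβ-catenin minus without) was 0.51 ± 0.16 (SE) for INSIG1 (adjusted p = 0.026), 1.23 ± 0.36 for ACSS2 (adjusted p = 0.0183), 2.35 ± 0.56 for ABCA1 (adjusted p = 0.00322) and 0.73 ± 0.25 for MYLIP (adjusted p = 0.039). edgeR called 0 of the 34 members, and single left-out libraries moved the count from 0 to 9. With the replicate number as a block 2 were called. These values rest on 3 libraries in which genes that respond to GSK3i go against the label or lie between the levels with and without it, both libraries of the siβ-catenin group among them. In BRCA2-deficient cells the same term was 0.42 for INSIG1 (95% interval from -0.32 to 1.16) and called 0 members.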

How the results depend on the processing

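Of the recomputed values of single genes (34 members, 15 comparisons), 6870 kept direction and call, 204 lost the call, 65 gained it and 1 turned: TM7SF2 for BRCA2 depletion under GSK3i with siβ-catenin, from -0.52 to 0.95 with single libraries left out, positive without the doubted BRCA2-proficient replicate 2. Of 210 recomputed counts of called members, 156 stayed within 1.5 times. With GSK3i the count was 11 to 16 of 34 in BRCA2-proficient, 9 to 17 in BRCA2-deficient and 4 to 14 in BRCA2-deficient siβ-catenin cells when libraries were left out, and 4, 4 and 2 in a test against a change of 0.5. For siβ-catenin under GSK3i it was 0 to 1 in each background with libraries left out, 0 with edgeR or against 0.5 in each, and 0 with 1 model over all groups in BRCA2-deficient cells. For siβ-catenin without GSK3i in BRCA2-proficient cells it was 0 to 7, and 0 with edgeR, 1 model or the test against 0.5. BRCA2 depletion gave 2 to 6 among untreated cells, 2 to 6 under GSK3i, 4 to 11 with siβ-catenin and 2 to 7 with both agents. edgeR gave 2 among untreated cells and 3 with both agents, and the test against 0.5 gave 1, 2, 2 and 2. The interaction of GSK3i and siβ-catenin in BRCA2-proficient cells gave 0 to 9, and 0 with edgeR or against 0.5. With the replicate block, siβ-catenin without GSK3i gave 2 in the BRCA2-proficient background and 1 in the other, BRCA2 depletion with siβ-catenin 4, and the BRCA2-proficient interaction 2. Among comparisons whose numbers do not pair, the block moved HMGCS1 to -0.43 with GSK3i in BRCA2-proficient cells (14 called) and, for BRCA2 depletion in untreated cells, CYP51A1 to -0.73 (not called), FASN to -0.54 and ABCA1 to 0.83 (both called). Beside those given with the results or counted here, it changed no other call. The causes of these shifts were not tested. ABCG1 was too scarce to test, and the 2 groups of 2 libraries limit the BRCA2-proficient comparisons.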

Other observations

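Single genes of the lists around the pathway were called with siβ-catenin under GSK3i, and they are not read as a trait of those lists. Of all genes, 3.13% were called higher in BRCA2-deficient and 3.45% in BRCA2-proficient cells. The share called lower is not given here. In BRCA2-deficient cells ERLIN1, a scaffold protein of the endoplasmic reticulum, fell by 0.50 ± 0.12 on the log2 scale (adjusted p = 0.00152) and ACSL1 by 0.52 ± 0.12 (adjusted p = 0.000801). LPIN3 rose by 0.83 ± 0.28 (adjusted p = 0.0425), and ELOVL7, which elongates saturated fatty acids, by 1.04 ± 0.17 (adjusted p = 4.74e-07). In BRCA2-proficient cells ACSL1 (-0.80 ± 0.21), LPIN3 (1.10 ± 0.30) and ELOVL7 (0.91 ± 0.19) were also called, where replicate 2 of the group given both agents is a doubted library.

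With siβ-catenin in BRCA2-deficient cells, GSK3i still lowered MBTPS1 by 0.91 ± 0.13 and RXRB by 1.40 ± 0.14, and raised TMEM97 by 1.09 ± 0.18 on the log2 scale.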
